A study of Mus musculus with 6 samples.

Results

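The mitochondrial genes of the 22q11.2 interval, encoding proteins that act in or are linked with mitochondria, are Mrpl40, Slc25a1, Txnrd2, Prodh, Tango2 and Zdhhc8. They were chosen by gene name from the 54532 genes of the deposited expression table, and all 6 were found in it. RNA-seq was run on endothelial cells sorted from perfused brains as live CD31+, CD45- and PDGFRb- cells. Every library came from Df(h22q11)/+ mice aged 12 to 16 weeks, which carry a heterozygous deletion of the mouse region that matches human 22q11.2, so each of the 6 genes had 1 copy left in every sample, controls included. Untreated mice ate irradiated base chow and the others chow with 0.5% bezafibrate, a fibrate drug that activates PPAR nuclear receptors, for 4 weeks. Each library pooled 3 brains of 1 sex. In library names F stands for female and M for male: untreated mice gave F_1, F_2 and M_1, and bezafibrate mice F_1, M_1 and M_2. Wild-type libraries were not analysed here, so nothing can be said about how far the deletion itself lowers these genes. The question addressed was whether these hemizygous genes differed between the chows, and how they varied between libraries.

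The 6 genes sit at different points of mitochondrial metabolism. Mrpl40 encodes a protein of the large subunit of the mitochondrial ribosome, which translates the mRNAs made from mitochondrial DNA. Slc25a1 encodes the citrate carrier of the inner membrane, which moves citrate to the cytosol for fatty acid and sterol synthesis. Txnrd2 encodes the mitochondrial thioredoxin reductase, which keeps thioredoxin 2 reduced for the removal of peroxide, and Prodh encodes proline dehydrogenase, which starts the breakdown of proline and passes electrons to the respiratory chain. Tango2 is a gene whose loss in people gives metabolic crises and whose product has been linked with heme and lipid handling. Zdhhc8 encodes a palmitoyltransferase of the DHHC family, an enzyme that attaches palmitate to cysteines of other proteins. Brain endothelial cells form the blood-brain barrier and carry many transporters.

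Reads recovered from FPKM and gene length summed to 16858130 to 20228619 per library. Between 11060 and 11387 genes reached 1 FPKM, a unit that scales reads to gene length and library size. Endothelial markers were high in every library: Pecam1 stood at 207 to 291 FPKM and Cldn5, which lies in the deleted interval, at 774 to 1386. The summed level of 16 endothelial markers was 10308 to 14098 in untreated and 8960 to 12956 in bezafibrate libraries. No marker listed for any cell type was at 0 in all libraries. The 12 choroid plexus and ependymal markers summed to 364 to 412 in untreated and 418 to 951 in bezafibrate libraries, but Ttr alone made up 349 to 389 and 397 to 919 of this, and the other 11 overlapped between the groups, at 14.2 to 23.6 and 20.9 to 31.7. The 10 pericyte markers summed to 199 to 363 and 202 to 281. The fitted bezafibrate minus untreated log2 difference was below 0 for 12 of 12 tested astrocyte (median -0.18) and 11 of 11 oligodendrocyte markers (-0.27). The same held for 14 of 16 endothelial, 8 of 10 pericyte and 5 of 7 microglia markers. It held for 4 of 6 smooth muscle, 3 of 4 erythrocyte and 1 of 2 neuron markers. The difference was above 0 for 8 of 9 choroid plexus and ependymal markers, and for 48.2% of all genes tested. Along the leading principal component (39.3% of the variance), untreated M_1 and bezafibrate F_1 lay at 30.3 and 24.4 and the remaining libraries between -22.6 and 1.62, so these 2 stood apart. These 2 libraries are of different chows and sexes. In bulk libraries, fewer cells of a type and less RNA per cell cannot be told apart.

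The 6 genes lie on chromosome 16 of GRCm38 within 951640 bases, from 17925223 to 18876862. Txnrd2 is on the plus strand and the other 5 are on the minus strand. In order along the chromosome, Slc25a1 covers 17925223 to 17928219, Prodh 18060357 to 18090203, Zdhhc8 18220753 to 18235136, Tango2 18300825 to 18348103, Txnrd2 18426384 to 18479073, and Mrpl40 18872018 to 18876862. The number of merged exons is 7 for Slc25a1, 15 for Prodh, 11 for Zdhhc8, 14 for Tango2, 23 for Txnrd2 and 4 for Mrpl40. Mrpl40 and Tango2 start close to a gene on the other strand. Mrpl40 and Hira, which encodes a histone chaperone, start 175 bases apart, and Tango2 and Arvcf, a catenin gene, start 79 bases apart. Prodh overlaps Dgcr6 over 11276 bases but shares 0 exon bases with it.

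Promoters were searched for short motifs on both strands in the 300 bases that RefSeq sequence gives around each gene start on GRCm38.p6, 250 before it and 50 after it. All 6 genes matched, and Tango2 has 3 annotated starts, so a gene was counted when any of its windows held the motif. The shares of all promoters count each window singly, so a gene with 3 windows could match more easily. The letters of a PPAR response element, AGGTCA repeated after 1 base, were found in 0 of 6 genes and in 13 of 32841 promoters overall (0.0396%). A single AGGTCA was found in 1 of 6, Txnrd2, against 16.3% of all promoters. The ETS core CCGGAA was in 4 of 6 (14.9% of all) and the GC box GGGCGG in 5 of 6 (35.7% of all). Tango2 counted for the ETS core only through its overlapping windows inside the gene, from 18343861 and 18343883. Its window from 18348049, at the outer end of the gene, held 0. The E-box CACGTG was in 1 of 6, Slc25a1 (7.15% of all), and the TATA box TATAAA in 0 of 6 (13.6% of all). The windows of the 6 genes held 63.0% to 69.3% G and C, against a median of 52.7% over all promoters. A match is only a description of the letters, and a missing match says only that these letters are not in this window.

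Slc25a1 and Zdhhc8 were the most abundant of the 6 genes, Mrpl40 was intermediate, and Prodh, Txnrd2 and Tango2 were near or below 1 FPKM. FPKM is scaled per length, so the levels can be set side by side. Over all 6 libraries the mean was 14.5 ± 2.67 FPKM for Slc25a1 (SD, n = 6), 11.1 ± 3.68 for Zdhhc8, 3.00 ± 1.73 for Mrpl40, 0.872 ± 0.416 for Prodh, 0.850 ± 0.431 for Txnrd2 and 0.417 ± 0.170 for Tango2. The ranges of Zdhhc8 and Mrpl40 did not overlap, nor did those of Mrpl40 and Prodh, and the first of each pair was higher in 6 of 6 libraries. Slc25a1 exceeded Zdhhc8 in 4 of 6, Prodh exceeded Txnrd2 in 3 of 6, and Txnrd2 exceeded Tango2 in 5 of 6, with overlapping ranges. An exact sign-flip permutation test (two-sided) of the difference within libraries in log2(FPKM + 1) gave p = 0.031 for Zdhhc8 over Mrpl40 and for Mrpl40 over Prodh, the smallest that 6 libraries allow, and 0.078 after Benjamini-Hochberg adjustment over the 5 neighbouring pairs. No pair passed 0.05 after adjustment. With only 2 of 5 pairs at the smallest p allowed, 0.078 is the value adjustment gives however large their differences are. This result therefore does not speak against the order of those 2 pairs.

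The spacing and, at the low end, the order of the levels depend on gene length. The deposited lengths are those of all annotated exons merged, 7797 bases for Prodh and 7910 for Tango2, whereas their principal transcripts have 2386 and 1622 bases. With the principal transcript length, an alternative chosen after seeing the data, the means became 18.8 FPKM for Slc25a1, 11.1 for Zdhhc8, 4.13 for Mrpl40, 2.85 for Prodh, 2.04 for Tango2 and 1.30 for Txnrd2. Tango2 then stood above Txnrd2, by 0.40 on the log2(FPKM + 1) scale, and Mrpl40 no longer stood clear of Prodh (exact sign-flip p = 0.41). The ranges of Zdhhc8 and Mrpl40 then overlapped, although Zdhhc8 was still higher in 6 of 6 libraries, and Slc25a1 exceeded Zdhhc8 in 6 of 6 (exact sign-flip p = 0.031, adjusted p = 0.078). A length changes the level of a gene in every library alike. It leaves the comparison of that gene between libraries as it was, apart from the pseudocount and the filter on low values described below.

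**Figure D1:**
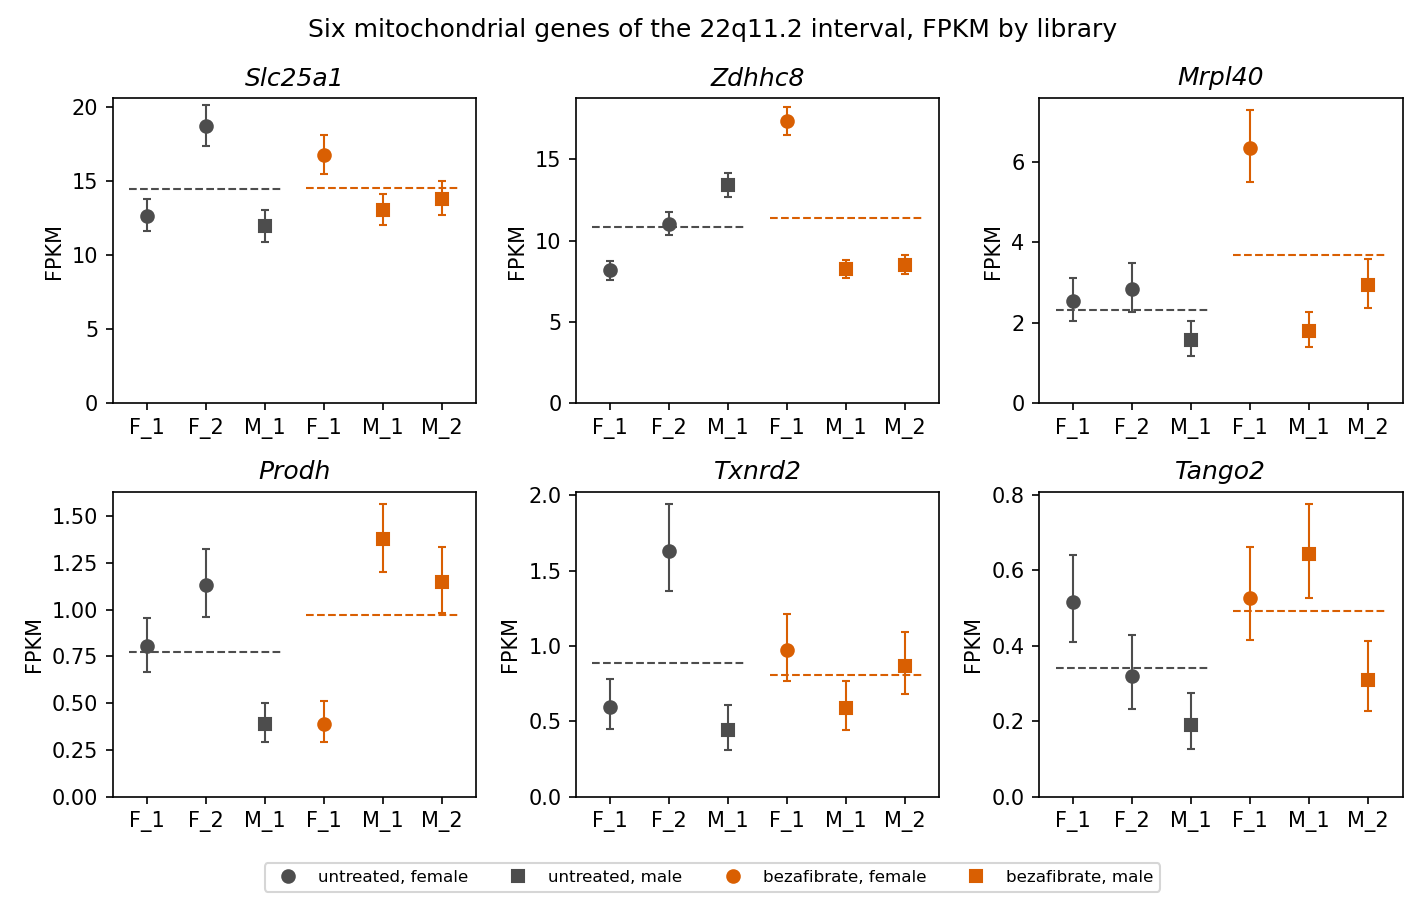
FPKM (vertical axis, linear, a separate scale for each gene) of the 6 genes in the 6 libraries (horizontal axis), untreated in grey and bezafibrate in orange, with circles for female and squares for male pools. Bars are exact Poisson 95% intervals of the reads, which cover counting error only, and dashed lines are group means. The groups overlap for every gene, and bezafibrate F_1 at 6.34 FPKM stands above the other 5 libraries for Mrpl40.

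Bezafibrate chow was not followed by a detectable difference in any of the 6 genes: for each of them the ranges of the 3 untreated and the 3 bezafibrate libraries overlapped. Mrpl40, Slc25a1, Prodh and Zdhhc8 passed the filter on low values (1 FPKM or more in 3 or more libraries) and were tested with limma on log2(FPKM + 1). None of these 4 was called at an adjusted p under 0.05, with an adjusted p of 0.999 for each. By the deposited lengths, Txnrd2 reached 1 FPKM in 1 library and Tango2 in 0, so both were outside the test. In an alternative fit with no filter, neither was called (limma adjusted p = 0.99 for Txnrd2 and 0.93 for Tango2). Over all 11277 genes tested, 1 gene was called (0.00887%) and 472 had an unadjusted p under 0.05. The groups did not overlap for 8.42% of all genes tested and for 0 of the 4 members tested.

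Mrpl40, the ribosomal protein gene, had the largest fitted treatment difference of the 4. It stood at 2.54, 2.84 and 1.56 FPKM in untreated F_1, F_2 and M_1, and at 6.34, 1.79 and 2.93 in bezafibrate F_1, M_1 and M_2, from 51 to 201 reads per library. Bezafibrate F_1 exceeded the other 5 libraries, while the other 2 bezafibrate libraries lay within or near the untreated range. The means were 2.31 ± 0.669 and 3.69 ± 2.37 (SD, n = 3 each), a log2 difference of 0.40 with a standard error of 0.351 (limma adjusted p = 0.999; exact two-sided permutation p = 0.40, where 0.1 is the smallest that 3 against 3 allows). Without bezafibrate F_1 the difference was 0.02 and without bezafibrate M_1 it was 0.72 (limma unadjusted p = 0.063, adjusted p = 1.00). With sex as a covariate, since the sexes are unevenly spread over the chows, it was 0.68 with a standard error of 0.233 (unadjusted p = 0.024, adjusted p = 1.00). The spread of Mrpl40 over the libraries was wide for its level: its SD of 0.54 on the log2 scale exceeded that of 97% of the 500 genes nearest in mean level.

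The other large-subunit genes of the mitochondrial ribosome had no such high median in bezafibrate F_1, where it was 2.55 on the log2 scale against 2.44 to 2.74 in the other 5 libraries. Of 52 listed names, 51 were in the table and 49 were tested. The fitted treatment difference was above 0 in 31 of 49 and below 0 in 18, none was called, and the median log2 difference was 0.06 against -0.01 over all genes tested. When FPKM was rescaled so that every library had the same total (TPM), the median of all genes moved to 0.10 and the share of genes above 0 from 48.2% to 68.3%, and the list's median moved to 0.18, with 38 of 49 above 0. The lists described with the other members shifted alike under this scaling, to 14 of 17 above 0 for citrate, 13 of 17 for thioredoxin, 9 of 12 for proline, 18 of 22 for heme and 22 of 26 for palmitoylation genes, with medians of 0.10 to 0.20, so directions of list medians are relative to that of all genes. Mrpl40 ranked 40 of 50 in level among these genes. Its log2 level minus the list's median was 0.32 in bezafibrate F_1 and between -1.23 and -0.65 in the other 5 libraries. Mrpl39 stood at 4.04 ± 1.49 FPKM in untreated and 5.59 ± 0.915 in bezafibrate libraries (log2 difference 0.42, limma adjusted p = 0.999), and Mrpl41 at 10.9 ± 1.20 and 11.3 ± 1.18 (0.05, adjusted p = 0.999). The smallest unadjusted p values of the list were those of Mrpl30, with 4.85 ± 0.638 against 6.61 ± 0.135 (0.38, adjusted p = 0.999), and Mrpl52, with 8.29 ± 1.30 against 11.7 ± 2.97 (0.43, adjusted p = 0.999).

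The promoter window of Mrpl40, at chr16:18876588-18876887 on the minus strand, is shown because this gene starts close to Hira. The window surrounds the RefSeq start, which lies inside the gene as positioned in the expression data. The 175 bases to Hira were instead counted from the gene end at 18876862, and Hira, from 18877037, lies outside the window. Capitals mark GC boxes and the ETS core, on either strand.
Mrpl40: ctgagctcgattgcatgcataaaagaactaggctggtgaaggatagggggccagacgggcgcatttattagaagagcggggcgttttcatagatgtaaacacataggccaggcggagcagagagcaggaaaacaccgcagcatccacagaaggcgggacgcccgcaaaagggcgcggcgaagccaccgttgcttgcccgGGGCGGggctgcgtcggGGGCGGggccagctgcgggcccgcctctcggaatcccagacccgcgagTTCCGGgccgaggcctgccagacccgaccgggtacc
The GC boxes of Mrpl40 begin 51 and 34 bases before this RefSeq start and the ETS core 14 bases after it. Hira did not share the high value of Mrpl40 in bezafibrate F_1. It was listed at 0.632, 1.44 and 0.823 FPKM in untreated F_1, F_2 and M_1 and at 1.14, 0.772 and 0.531 in bezafibrate F_1, M_1 and M_2, highest in untreated F_2, and it was below the filter.

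Slc25a1, the citrate carrier, was the most even of the 4 genes tested. It stood at 12.7, 18.8 and 11.9 FPKM in untreated F_1, F_2 and M_1 and at 16.8, 13.0 and 13.8 in bezafibrate F_1, M_1 and M_2, from 480 to 723 reads. Untreated F_2 and bezafibrate F_1 were high and the other 4 libraries lay between 11.9 and 13.8, so that both groups held a high library. The means were 14.5 ± 3.73 and 14.5 ± 1.98 (SD, n = 3 each), with a log2 difference of 0.03 and a standard error of 0.196 (limma adjusted p = 0.999; exact permutation p = 0.90). Its SD of 0.24 on the log2 scale still exceeded that of 63% of the 500 genes nearest in level, so it was even only beside the other members.

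The enzymes that make and use citrate did not move as a group either. All 20 listed genes were in the table and 17 were tested, with differences above 0 in 9 and below 0 in 8, none called, and a median of 0.02. Cs, the citrate synthase gene, stood at 16.1 ± 1.17 FPKM in untreated and 17.1 ± 1.37 in bezafibrate libraries. Acly, which encodes the enzyme that splits exported citrate in the cytosol, stood at 22.9 ± 0.802 and 19.7 ± 2.37 (log2 difference -0.21, limma adjusted p = 0.999). Acacb, an acetyl-CoA carboxylase gene, stood at 13.7 ± 2.62 and 17.4 ± 4.41 (0.31, adjusted p = 0.999). The level of Slc25a1 was above the median of these genes in 6 of 6 libraries, by 0.70 to 1.65 on the log2 scale, and ranked 8 of 18.

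The Slc25a1 promoter is shown because it held more of the kinds of motif searched than the other 5 genes, at chr16:17928170-17928469 on the minus strand. Capitals mark the E-box, the ETS core and GC boxes, on either strand.
Slc25a1: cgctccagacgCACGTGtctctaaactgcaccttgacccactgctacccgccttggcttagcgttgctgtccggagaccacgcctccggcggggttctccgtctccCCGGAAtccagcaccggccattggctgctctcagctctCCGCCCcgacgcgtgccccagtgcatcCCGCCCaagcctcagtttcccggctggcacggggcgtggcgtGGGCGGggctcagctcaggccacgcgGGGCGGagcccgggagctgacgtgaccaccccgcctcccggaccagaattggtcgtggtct
The E-box begins 239 bases before the start, the ETS core 144 bases before it, and the 4 GC boxes 106, 79, 37 and 11 bases before it.

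Txnrd2, the thioredoxin reductase, was low and untested. It was listed at 0.599, 1.63 and 0.441 FPKM in untreated F_1, F_2 and M_1 and at 0.972, 0.588 and 0.870 in bezafibrate F_1, M_1 and M_2, from 36 to 128 reads. Untreated F_2 was highest and untreated M_1 lowest, so the untreated libraries spanned the bezafibrate ones. The means were 0.891 ± 0.647 and 0.810 ± 0.199 (SD, n = 3 each), with a log2 difference of -0.02 (exact permutation p = 0.90). It ranked last, 18 of 18, beside the 17 tested genes of mitochondrial thioredoxin and peroxide removal. These had passed the filter on low values that Txnrd2 did not, so its low rank follows largely from the filter. Of those 17, 8 had a difference above 0 and 9 below 0, none was called, and the median was -0.01.

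The substrate and alternative enzymes of that pathway were more abundant than Txnrd2. Txn2, the mitochondrial thioredoxin, stood at 32.5 ± 5.28 FPKM in untreated and 26.1 ± 9.98 in bezafibrate libraries (log2 difference -0.35, limma adjusted p = 0.999). Prdx3, the peroxiredoxin that thioredoxin 2 serves, stood at 14.9 ± 1.10 and 15.2 ± 0.957, and Txnrd1, the cytosolic reductase, at 5.76 ± 0.316 and 5.70 ± 0.226. The 2 smallest unadjusted p values were those of Glrx5, a mitochondrial glutaredoxin gene (0.25, adjusted p = 0.999), and Gpx1, a glutathione peroxidase gene (-0.43, adjusted p = 0.999).

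The Txnrd2 promoter is shown because it alone of the 6 genes held the AGGTCA letters, at chr16:18426167-18426466 on the plus strand. Capitals mark the AGGTCA letters and the GC box, on either strand.
Txnrd2: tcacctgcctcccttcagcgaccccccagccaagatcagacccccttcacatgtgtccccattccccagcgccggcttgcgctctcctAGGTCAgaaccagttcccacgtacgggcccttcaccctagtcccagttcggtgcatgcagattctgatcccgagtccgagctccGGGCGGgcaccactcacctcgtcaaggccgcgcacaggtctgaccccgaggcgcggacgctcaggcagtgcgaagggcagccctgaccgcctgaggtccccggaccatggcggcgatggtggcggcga
The AGGTCA letters begin 162 bases before the start and the GC box 78 bases before it.

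Prodh, the proline dehydrogenase, was low in 2 libraries of different chow and sex. It stood at 0.804, 1.13 and 0.387 FPKM in untreated F_1, F_2 and M_1 and at 0.392, 1.38 and 1.15 in bezafibrate F_1, M_1 and M_2, from 55 to 228 reads. Untreated M_1 and bezafibrate F_1 were below the other 4 libraries, and these are the 2 libraries that stood apart on the leading principal component. The means were 0.774 ± 0.373 and 0.971 ± 0.515 (SD, n = 3 each), with a log2 difference of 0.14 and a standard error of 0.281 (limma adjusted p = 0.999; exact permutation p = 0.50). The sign of this difference turned without untreated M_1 (-0.03).

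Aldh4a1, which encodes the next enzyme of proline breakdown, had the same 2 low libraries. Aldh4a1 stood at 2.71, 2.94 and 1.58 FPKM in untreated F_1, F_2 and M_1 and at 1.49, 3.37 and 3.07 in bezafibrate F_1, M_1 and M_2. Untreated M_1 and bezafibrate F_1 were again below the other 4. Aldh18a1, which encodes the first enzyme of proline synthesis, had no such order: untreated M_1 was its highest library at 2.47 FPKM and untreated F_2 its lowest at 0.565.

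The proline list as a whole was balanced. Of 16 listed names, 15 were in the table and 12 were tested, with a difference above 0 in 6 and below 0 in 6, none called, and a median of 0.02. Slc38a2, a neutral amino acid transporter gene, stood at 66.2 ± 4.68 FPKM in untreated and 50.1 ± 5.05 in bezafibrate libraries, without overlap of the groups (log2 difference -0.40, unadjusted p = 0.0209, limma adjusted p = 0.999). Pycrl, a further proline synthesis gene, stood at 4.14 ± 0.261 and 5.59 ± 1.80 (0.32, adjusted p = 0.999). The 12 astrocyte markers, given because astrocytes also express Prodh, summed to 75.6, 51.3 and 64.7 FPKM in untreated F_1, F_2 and M_1 and to 35.6, 58.1 and 62.6 in bezafibrate F_1, M_1 and M_2. Their sum was lowest in bezafibrate F_1 but not low in untreated M_1. None of the 12 was at 0 in all libraries, and their part in the values of Prodh was not tested.

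**Figure D2:**
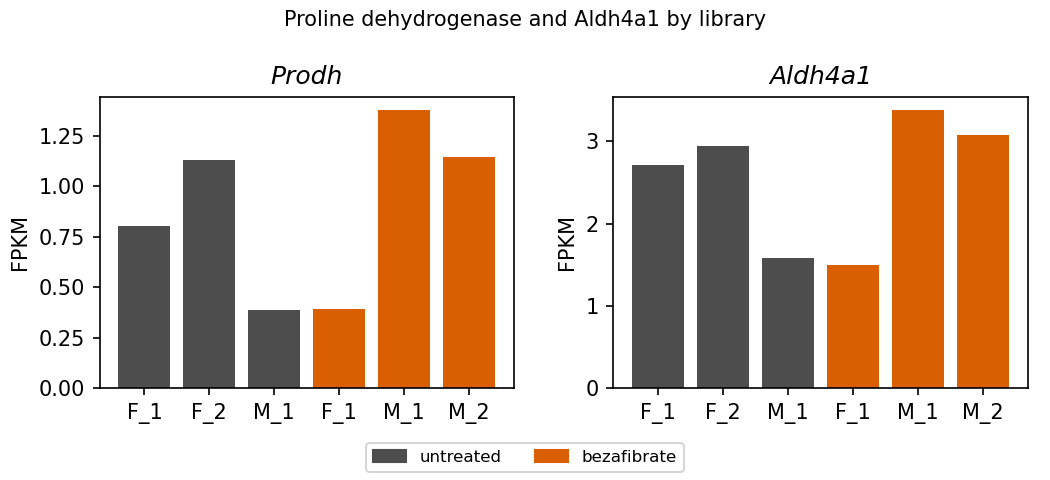
FPKM (vertical axis from 0, a separate scale for each gene) of Prodh and Aldh4a1 in each library (horizontal axis), untreated in grey and bezafibrate in orange, with 1 bar per library. Untreated M_1 and bezafibrate F_1 are the 2 lowest bars in each panel, at 0.387 and 0.392 FPKM for Prodh.

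Tango2 was the least abundant of the 6 by the deposited lengths. It was listed at 0.516, 0.319 and 0.191 FPKM in untreated F_1, F_2 and M_1 and at 0.527, 0.642 and 0.309 in bezafibrate F_1, M_1 and M_2, from 28 to 108 reads. Untreated M_1 was lowest and the groups overlapped. The means were 0.342 ± 0.164 and 0.493 ± 0.169 (SD, n = 3 each), with a log2 difference of 0.15 (exact permutation p = 0.40). Arvcf, the gene that starts 79 bases away on the other strand, was also below the filter, at 0.406 to 1.09 FPKM.

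The heme genes, listed beside Tango2 for its link with heme, had 22 of 24 members tested, with 14 above 0 and 8 below 0, none called, and a median of 0.08. By the deposited lengths, Tango2 ranked 23 of 23 in level beside the 22 tested. These had passed the filter on low values that Tango2 did not, so its low rank follows largely from the filter. Hmox1, which encodes the enzyme that breaks down heme, stood at 5.79, 5.64 and 5.63 FPKM in untreated F_1, F_2 and M_1 and at 8.09, 8.35 and 12.8 in bezafibrate F_1, M_1 and M_2. All 3 bezafibrate libraries exceeded all 3 untreated ones, with a log2 difference of 0.66 and a standard error of 0.184. Its unadjusted p was 0.00803 and its limma adjusted p over all genes 0.986, so it was not called. Ppox, which encodes a heme synthesis enzyme, stood at 5.45 ± 0.736 and 7.50 ± 0.926 (0.40, adjusted p = 0.999), and Pgrmc1, a heme-binding membrane protein gene, between 85.6 and 101 FPKM in the 6 libraries (-0.05, adjusted p = 0.999).

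Zdhhc8, the palmitoyltransferase, was high in the 2 libraries in which Prodh was low. It stood at 8.16, 11.02 and 13.4 FPKM in untreated F_1, F_2 and M_1 and at 17.3, 8.24 and 8.50 in bezafibrate F_1, M_1 and M_2, from 778 to 1520 reads. Bezafibrate F_1 and untreated M_1 were the 2 highest libraries, so that the groups overlapped widely. The means were 10.9 ± 2.62 and 11.4 ± 5.18 (SD, n = 3 each), with a log2 difference of 0.01 and a standard error of 0.296 (limma adjusted p = 0.999; exact permutation p = 0.90). Without bezafibrate F_1 the difference was -0.32 (limma adjusted p = 0.698). Its SD of 0.41 on the log2 scale exceeded that of 91.8% of the 500 genes nearest in level.

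Mal, listed among the oligodendrocyte markers, was highest in the same 2 libraries as Zdhhc8. It stood at 342, 503 and 902 FPKM in untreated F_1, F_2 and M_1 and at 806, 330.5 and 413 in bezafibrate F_1, M_1 and M_2. Unlike Mal, the other 11 oligodendrocyte markers summed to 169, 102 and 154 FPKM in the untreated and to 107, 100.5 and 114 in the bezafibrate libraries in that order, and were highest in untreated F_1. None of the 12 was at 0 in all libraries, and only Mal of the 12 had untreated M_1 and bezafibrate F_1 as its 2 highest libraries. This was not particular to Mal. The 16 endothelial markers also summed highest there, at 14098 and 12956 FPKM against 8960 to 12107 in the other 4 libraries. However, Slc2a1 alone made up 5752 and 5337 FPKM of these sums. The other 15 endothelial markers summed to 8346 and 7619 against 6256 to 7678, so that bezafibrate F_1 then lay below untreated F_2. Bezafibrate F_1 and untreated M_1 were the 2 highest libraries for 4 of 16 endothelial, 2 of 8 smooth muscle, 2 of 8 fibroblast and 1 of 11 neuron markers. The part of any cell type in the values of Zdhhc8 was not tested. Of the 35 other palmitoylation genes listed, 26 were tested, with 18 above 0 and 8 below 0, none called, and a median of 0.04. Zdhhc8 ranked 12 of 27 in level, and its log2 level minus the median of the list was 0.86 and 1.04 in untreated M_1 and bezafibrate F_1 against 0.22 to 0.39 in the other 4 libraries. Zdhhc5, a related enzyme of the cell surface, stood at 14.7 ± 1.63 in untreated and 14.3 ± 1.47 FPKM in bezafibrate libraries, between 12.7 and 16.2 throughout. The smallest unadjusted p values in the list were those of Lypla2, a depalmitoylating thioesterase gene (log2 difference 0.54, limma adjusted p = 0.999), and Zdhhc16 (0.33, adjusted p = 0.999).

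Among the 4 genes tested, Mrpl40 had the largest fitted difference between female and male pools. Its mean was 3.91 ± 2.11 FPKM in the 3 female and 2.09 ± 0.734 in the 3 male libraries (SD). With treatment as a covariate, the male minus female log2 difference was -0.84 with a standard error of 0.233, with an unadjusted limma p of 0.010 and an adjusted p of 1.00, so it was not called. Without bezafibrate F_1, the difference was -0.53 (limma adjusted p = 0.464), and the exact permutation p of the sexes without the covariate was 0.30. Slc25a1 differed by -0.32 (standard error 0.189), Zdhhc8 by -0.26 (0.326) and Prodh by 0.10 (0.315), none called. Over all 11277 genes tested, 3 were called between the sexes (0.0266%), Ddx3y and Eif2s3y of the Y chromosome higher in males and Xist higher in females.

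Other genes of the deleted interval were also mostly lower in the male pools. Of the 22 further interval genes in the table, 11 were tested, and 10 of these 11 had a male minus female difference below 0, with a median of -0.27 against -0.01 over all genes tested. The remaining 1 of 11 was above 0, as were 48.4% of all genes tested. None was called. The count was 8 of 11 without bezafibrate F_1 and 9 of 11 without untreated M_1, with medians of -0.16 and -0.31, and it was 10 of 11 when rescaled to TPM. Over the 15 interval genes tested, members included, the highest library was a female one for 12 (80.0%), against 43.2% of all genes tested. Bezafibrate F_1 was highest for 7 of the 15 (16.4% of all genes tested) and untreated F_2 for 5 (11.9% of all). Neighbouring genes on 1 chromosome share their libraries and are not independent.

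By chow, the same 11 genes had no common direction. The fitted difference was above 0 in 7 and below 0 in 4, with a median of 0.06, where 48.2% of all genes tested were above 0. Without both of the libraries that stood apart it was above 0 in 2 of 11 with a median of -0.11, a fit that compares untreated females with bezafibrate males. Cldn5, the tight junction gene, stood at 1183 ± 189.6 FPKM on base chow and 921 ± 246.4 on bezafibrate (log2 difference -0.38, limma adjusted p = 0.999), and Dgcr8, a microRNA processing gene, at 1.09 ± 0.394 and 1.68 ± 0.414 (0.37, adjusted p = 0.999). Untreated M_1 was the lowest library for 5 of the 6 members, all but Zdhhc8, and for 7 of the 15 interval genes tested. Over all genes tested it was the lowest for 20.8%.

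**Figure D3:**
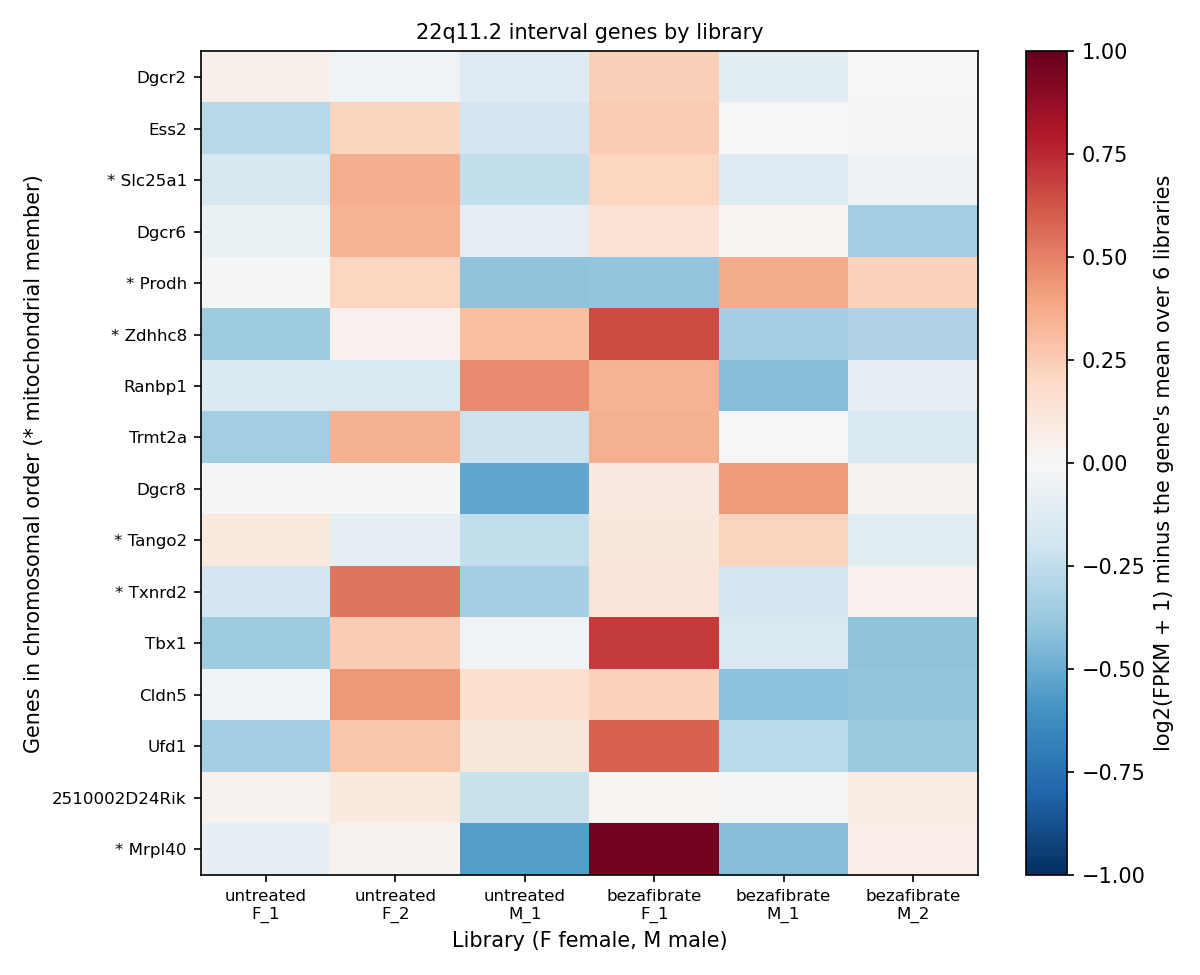
Genes of the 22q11.2 interval in chromosomal order (vertical axis, members marked with an asterisk) by library (horizontal axis), coloured by log2(FPKM + 1) minus the mean of that gene over the 6 libraries. The 6 members and 10 further genes tested are shown. Bezafibrate F_1 is the highest library for Mrpl40 and Zdhhc8, and untreated F_2 for Slc25a1 and Txnrd2.

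For Prodh and Zdhhc8 the values by chow ran in opposite directions in the sexes. Prodh was lower in the bezafibrate female pool than in both untreated female pools and higher in both bezafibrate male pools than in the untreated male pool. Zdhhc8 had the reverse pattern. The interaction, the male minus the female effect in log2, was 1.20 with a standard error of 0.418 for Prodh (limma adjusted p = 0.178) and -1.43 with a standard error of 0.316 for Zdhhc8 (adjusted p = 0.0802), neither called. It was -0.62 for Mrpl40 (adjusted p = 0.406) and 0.04 for Slc25a1 (adjusted p = 0.963). Of all genes tested, 75 were called for the interaction (0.665%), and 41.6% of all genes ran in opposite directions in the sexes in the same sense. The fit was added after seeing the data and rests on single libraries, untreated M_1 and bezafibrate F_1, for 2 of its 4 combinations. These are the libraries that stood apart, so the interaction and those libraries cannot be told apart.

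**Figure D4:**
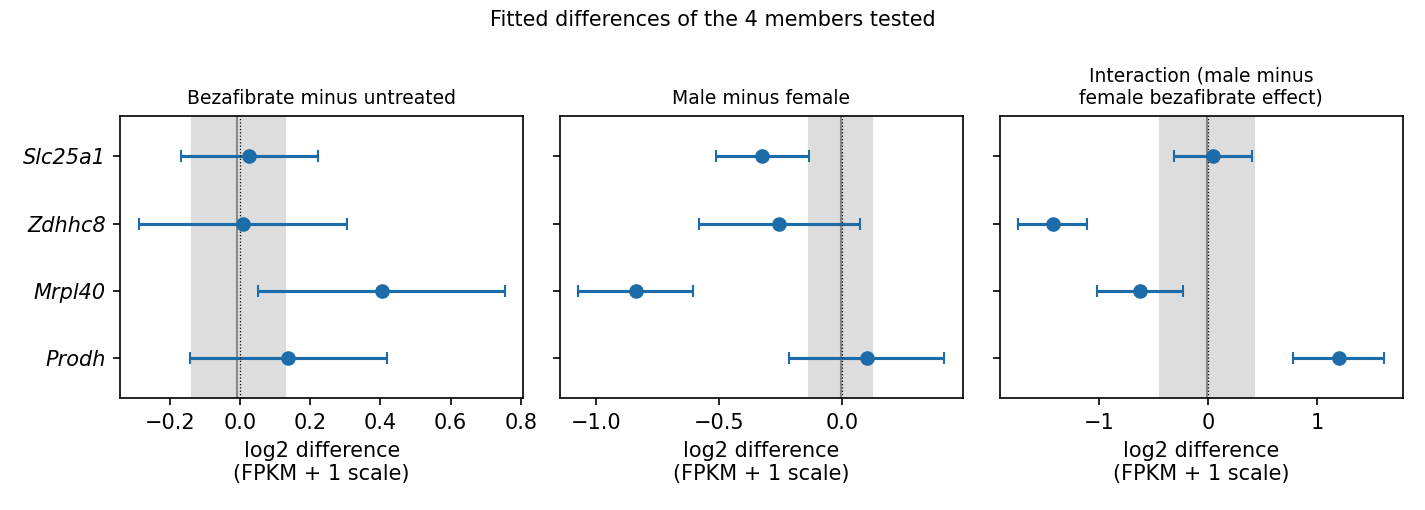
Fitted log2 differences (horizontal axes, on the FPKM + 1 scale, a separate range in each panel) of the 4 members tested (vertical axis) for chow, sex and their interaction. Points are limma estimates, bars 1 standard error, the grey band holds the middle 50% of all 11277 genes tested and the grey line their median. For chow the 4 estimates lie between 0.01 and 0.40, and for the interaction Zdhhc8 at -1.43 and Prodh at 1.20 lie outside the band.

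The genes most like each tested member over the 6 libraries were found among the other 10065 protein-coding genes tested by Pearson correlation of log2(FPKM + 1), given as a description. Each pair shares its libraries, their depth and the 2 libraries that stood apart. For Slc25a1 the genes most alike included Gm9833 (r = 0.965) and Vac14 (r = 0.956), both highest in untreated F_2, as Slc25a1 was. For Mrpl40 the most alike was Ndufa3, which encodes a subunit of respiratory complex I, with r = 0.980 and 32.3 FPKM in bezafibrate F_1 against 17.1 to 20.6 in the other libraries, followed by Pbx3 and Smim11. For Prodh it was Hltf (r = 0.996), followed by Xpc and Nat8f2, and for Zdhhc8 it was Eprs (r = 0.996), followed by Smad2 and Actr1b.

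Mrpl40 and Slc25a1 had fewer closely alike genes than Prodh and Zdhhc8. An r above 0.9 was reached by 29 genes for Mrpl40 and 28 for Slc25a1, but by 231 for Prodh and 402 for Zdhhc8, each of 10065. The last 2 members are those that separate untreated M_1 and bezafibrate F_1 from the other 4 libraries.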

How the data were processed

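RNA was measured in 6 libraries of sorted brain endothelial cells, 3 untreated and 3 bezafibrate, each a pool of 3 brains. Per the labels' protocols, cDNA was made with SMART-Seq HT, libraries with Nextera XT, reads were single-end of 75 bases, and de-duplicated reads were mapped with Salmon. The submitters' processing notes name GRCm38. No source used here gives the annotation, the use of strand or the normalization.

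The authors deposited gene FPKM. The column of untreated M_1 is numbered differently from that sample's title, and the sample's description gave the match. FPKM times length gave whole reads for 100% of values at a tolerance of 0.01, and these served for depth, counting intervals and an added limma-voom fit. All positions of the 6 genes equal those of GENCODE M21.

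Genes at 1 FPKM or more in 3 or more libraries (11277, of which 10066 protein-coding) were fitted on log2(FPKM + 1), which understates changes of low genes, with limma 3.58.1 in R 4.3.3 (lmFit, eBayes with trend), two-sided, with Benjamini-Hochberg adjustment over all genes. Treatment had no covariate, sex had treatment as one, and the interaction was added later. The fit was tested on simulated data with genes of known change. Named genes were the members, fixed partners, the 2 smallest unadjusted p values of each list, the 3 genes most alike to each member, and overlapping or adjacent genes. The members and lists were chosen with earlier results of these data known. P-values measure the spread between pools. Some genes covered by these rules are not reported here.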

Additional observations from a re-analysis of the deposited data

Results flagged for a closer look

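Prodh drew attention because its response to chow ran in opposite directions in the sexes, with an interaction (male minus female effect, log2) of 1.20. Zdhhc8 did so in the reverse sense, with an interaction of -1.43. Neither passed the threshold in the limma fit over all genes (adjusted p of 0.178 and 0.0802). Both rest on untreated M_1 and bezafibrate F_1, the single libraries of their chow and sex, and 4696 of 11277 genes tested (41.6%) also ran in opposite directions.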

How the results depend on the processing

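No member was called for treatment or sex under any alternative in which it passed the filter. For treatment, the log2 difference of Slc25a1 turned negative with array weights (-0.24) and that of Zdhhc8 did so too (-0.17). With 1 library left out, Mrpl40 ranged from 0.02 to 0.72, Slc25a1 from -0.088 to 0.22 and Zdhhc8 from -0.32 to 0.18. Prodh ranged from -0.029 to 0.37 over the 3 fits in which it passed the filter, which it did not without untreated F_2, bezafibrate M_1 or bezafibrate M_2. Without both untreated M_1 and bezafibrate F_1, a fit of untreated females against bezafibrate males, Mrpl40 was at -0.15, Slc25a1 at -0.19 and Zdhhc8 at -0.16. Prodh remained above 0 in that fit, at 0.20. For sex, leaving out bezafibrate F_1 turned Prodh to -0.50 and Zdhhc8 to 0.46, with ranges of -0.50 to 0.70 (over the same 3 fits) and -0.97 to 0.46. The cause was not tested.

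The count of genes called for treatment was 0 with limma-voom, 0 without those 2 libraries and 0 to 3 with 1 library left out, and 1 to 4 for sex. Same-named libraries did not deviate together (correlations of -0.363 and -0.299), and the fit with a replicate block called 0 genes. For the interaction, the count was 478 with no filter, 571 at FPKM of at least 5, 222 rescaled to TPM, 1 with quantile scaling and 1083 with limma-voom. At FPKM of at least 5, 1 of the 2 members tested was called for it (Zdhhc8), beside 571 of all 6404 genes tested. With limma-voom, 2 of the 4 members tested were called (Prodh and Zdhhc8), beside 1083 of all 11277. With the principal transcript length, Txnrd2 minus Tango2 reversed to -0.40. The sex fit without both libraries could not be fitted, since sex and treatment are then the same split. Depth limits Txnrd2, Tango2 and Mrpl40, with as few as 36, 28 and 51 reads in a library. The 3 libraries per group limit every comparison.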
